A study of Mus musculus and Rattus norvegicus with 85 samples.

Results

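A set of 6 erythroid genes, Alas2, Ahsp, Slc4a1, Hba-a1, Epb42 and Bpgm, was followed in whole lung RNA of mice and rats that had inhaled chloroprene. All probe sets annotated to these 6 symbols were taken, which gave 13 of 45101 probe sets on the mouse array and 10 of 31099 on the rat array. Of these, 9 passed a filter on dim signal in each species. A gene entered the test across all genes through its brightest probe set that named no other gene, so that 3 members were tested in the mouse (Alas2, Slc4a1 and Bpgm, of 13796 genes) and 4 in the rat (Alas2, Ahsp, Slc4a1 and Bpgm, of 11010 genes). Hba-a1 above the filter was measured only through probe sets shared with its copy Hba-a2, Epb42 stayed below the filter in both species, and no mouse probe set carried the symbol Ahsp here. The 6 genes had been selected on earlier results from the same log2 signals, with no single contrast named. The p-values below set each change against the spread between animals and are no independent support for the choice.

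Chloroprene is a volatile chlorinated diene used to make synthetic rubber, and the study followed lung transcripts over a range of inhaled concentrations and over time. Female B6C3F1/Crl mice and female rats (F334/NCrl in the sample labels, F344/NCrl in the design text) were 10 weeks old at the start and breathed chloroprene with the whole body for 6 h a day, 5 days a week. The RNA came from right lung lobes of animals killed by pentobarbital and exsanguination, and perfusion of the lung is not stated. Each of 17 groups held 5 animals, 1 array an animal. Mice exposed for 5 days formed 5 groups, at 0 ppm and at 0.3, 2, 13 and at 90 ppm, and mice exposed for 15 days formed 4 groups, at 0.3, 2, 13 and at 90 ppm. Rats received 5, 30, 90 or 200 ppm for 5 or 15 exposure days. The lowest concentration of each series was the reference, which for rats was 5 ppm and for mice at 15 days was 0.3 ppm, so that these comparisons are between exposed animals. Groups at 0 ppm of rats, and of mice at 15 days, were not analysed here.

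These genes serve the making of red blood cells. Alas2 is the first and rate-limiting enzyme of haem synthesis in erythroid cells, Hba-a1 encodes the alpha globin chain of haemoglobin, and Ahsp is a chaperone that binds free alpha globin until it pairs with beta globin. Slc4a1 is the anion exchanger of the red cell membrane, and Epb42 encodes a protein that ties this exchanger to the membrane skeleton. Bpgm makes the bisphosphoglycerate that lowers the oxygen affinity of haemoglobin. Young red cells, the reticulocytes, leave the bone marrow with much of this RNA and lose it as they mature in the blood, and blood left in the vessels of a lung sample brings it along.

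The lung identity of the samples was checked with alveolar type 2 cell markers. The mean log2 signal of this list (9 of 10 genes measured in mice, 10 of 10 in rats) lay between 13.5 and 14.0 on every mouse array and between 12.8 and 13.1 on every rat array. In bulk tissue, a lower signal of an erythroid gene can mean fewer cells of that kind or less RNA per cell, and these cannot be told apart. All values below are log2 signals as deposited, so a difference of 1 is a doubling or halving of signal, and probe sets of different genes were not compared in level.

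The 250 bases before the transcription start of 3 of the genes are shown because erythroid promoters are known for binding sites of the GATA factors and of Klf1. RefSeq promoters of GRCm38.p6 held 4 of the 6 members (Alas2, Hba-a1, Epb42 and Bpgm). Capitals mark GATA words (GATA with A or T before it and A or G after it, either strand) and matches to CCNCNCCC on either strand, the run of cytosines that Klf1-type factors bind. The windows lie at chrX:150547167-150547416, plus strand, for Alas2, at chr11:32283422-32283671, plus strand, for Hba-a1, and at chr6:34476106-34476355, plus strand, for Bpgm.
Alas2: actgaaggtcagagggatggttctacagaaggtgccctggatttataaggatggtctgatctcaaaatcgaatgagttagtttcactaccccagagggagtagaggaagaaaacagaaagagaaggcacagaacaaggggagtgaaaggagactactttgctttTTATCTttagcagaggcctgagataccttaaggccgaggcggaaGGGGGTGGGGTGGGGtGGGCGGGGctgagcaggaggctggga
Hba-a1: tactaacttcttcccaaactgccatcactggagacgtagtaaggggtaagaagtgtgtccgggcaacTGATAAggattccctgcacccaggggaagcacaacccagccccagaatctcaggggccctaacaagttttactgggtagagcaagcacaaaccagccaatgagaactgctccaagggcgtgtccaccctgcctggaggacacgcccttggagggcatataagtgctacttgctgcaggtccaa
Bpgm: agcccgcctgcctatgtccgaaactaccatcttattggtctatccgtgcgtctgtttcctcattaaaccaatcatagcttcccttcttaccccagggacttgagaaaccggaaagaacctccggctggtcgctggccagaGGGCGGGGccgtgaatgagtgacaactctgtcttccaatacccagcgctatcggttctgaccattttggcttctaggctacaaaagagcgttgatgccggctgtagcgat
Alas2 held 1 GATA word, with its first base 86 bases before the start, and 4 matches to CCNCNCCC that began 42, 40, 35 and 26 bases before it, the first 3 of them overlapping. Hba-a1 held 1 GATA word at 183 bases and no match to CCNCNCCC. Bpgm held no GATA word and 1 match to CCNCNCCC at 110 bases, and Epb42 (not shown) 1 GATA word at 226 bases. Hba-a1 and Hba-a2 were identical over all 297 bases that could be aligned around their starts, and the probe sets above the filter name both genes. Of 32851 mouse promoters in the same window, 26.5% held a GATA word, 45.9% a match to CCNCNCCC and 8.19% both, so these matches are common and are a description only.

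In rats killed after 5 exposure days, Alas2 and Bpgm were lower at 90 and 200 ppm than at 5 ppm, and so was Ahsp, whose probe set did not follow the other members from animal to animal. Alas2 fell to 43.2% of its 5 ppm signal at 200 ppm, Ahsp to 45.3% and Bpgm to 64.1%, while Slc4a1 stood at 85.5% on its brightest probe set without passing the test. At 90 ppm, 4 of 4 tested members were lower in limma's test (adjusted p under 0.05), in a comparison that called 19.5% of all genes lower. At 200 ppm, 3 of 4 were lower, where 31.6% of all genes were called lower. Leaving Ahsp out, 3 of 3 were lower at 90 ppm and 2 of 3, Alas2 and Bpgm, at 200 ppm. Both comparisons, and that of 30 ppm, share the 5 ppm rats. The median change of all genes was -0.14 at 90 ppm and at 200 ppm, and the members' median was -0.65 and -0.89, or -0.49 and -0.64 without Ahsp. Among all 11010 genes, 9 showed a larger fall than Alas2 at 200 ppm, 12 than Ahsp, 112 than Bpgm and 3997 (36.3%) than Slc4a1.

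**Figure D1:**
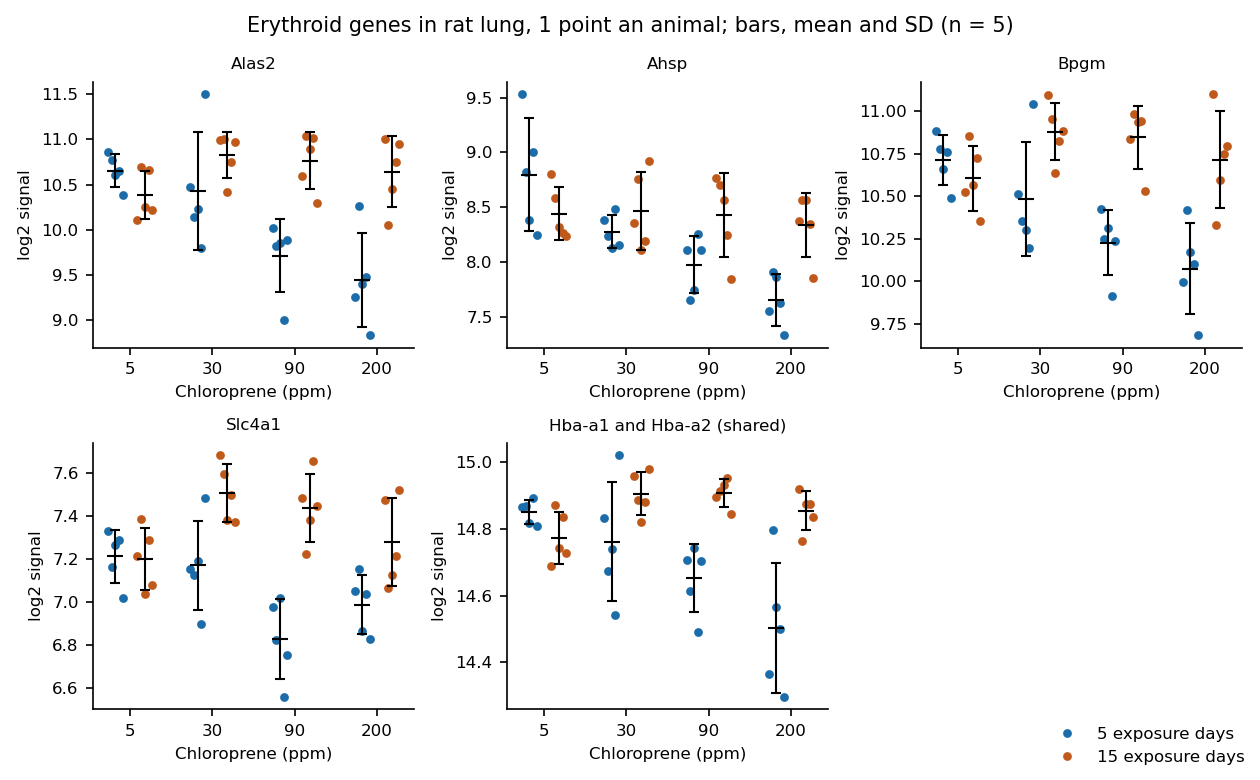
Log2 signal (vertical axis) of Alas2, Ahsp, Bpgm, Slc4a1 and the globin probe set shared by Hba-a1 and Hba-a2 in single rat lungs by chloroprene concentration (horizontal axis, ppm), with 1 point an animal, colour for 5 or 15 exposure days, and bars for the mean and SD of 5 animals. At 5 days, Alas2 went from a mean of 10.65 at 5 ppm to 9.44 at 200 ppm, while at 15 days its group means lay between 10.39 and 10.83.

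Alas2 was read at 10.86, 10.77, 10.61, 10.65 and 10.39 in the 5 rats at 5 ppm after 5 days, and at 10.48, 10.14, 10.23, 9.79 and 11.51 at 30 ppm. It was read at 10.02, 9.82, 9.85, 9.0 and 9.89 at 90 ppm, and at 9.25, 10.26, 9.39, 9.48 and 8.83 at 200 ppm. Every rat at 90 and 200 ppm lay below every rat at 5 ppm, and the 30 ppm group, which held the highest value of all in rat 239, overlapped both sides. The change from 5 ppm was -0.94 ± 0.24 (SE, n = 5 a group, limma adjusted p = 0.017) at 90 ppm and -1.21 ± 0.24 (adjusted p = 0.00089) at 200 ppm. At 30 ppm it was -0.23 ± 0.24 (adjusted p = 0.57).

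Among the globin probe sets, the 3 shared by Hba-a1 and Hba-a2 lay near the top of the scale, where a change can be compressed. The most variable of them, 1388608_x_at, gave 14.86, 14.87, 14.82, 14.89 and 14.81 at 5 ppm, 14.71, 14.61, 14.74, 14.49 and 14.70 at 90 ppm, and 14.36, 14.80, 14.57, 14.50 and 14.30 at 200 ppm. All rats at 90 and 200 ppm lay below all rats at 5 ppm on this probe set. Its change was -0.20 ± 0.07 (limma adjusted p = 0.049 over all probe sets, of which 15.8% were lower) at 90 ppm and -0.34 ± 0.07 (adjusted p = 0.0015, with 25.5% of probe sets lower) at 200 ppm. The other shared probe sets, 1370239_at and 1370240_x_at, fell by 0.15 and 0.17 at 200 ppm (adjusted p = 0.0096 and 0.010), and at 90 ppm gave -0.09 and -0.10 without passing the test.

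Ahsp, the alpha globin chaperone, was read at 9.54, 8.82, 8.38, 9.0 and 8.25 in the 5 ppm rats and at 8.38, 8.24, 8.13, 8.48 and 8.15 at 30 ppm. It was read at 8.11, 7.65, 7.75, 8.26 and 8.11 at 90 ppm, and at 7.55, 7.90, 7.86, 7.63 and 7.33 at 200 ppm. All 5 rats at 200 ppm and 4 of 5 at 90 ppm were below every 5 ppm rat, and the 5 ppm group itself was the most spread (SD 0.52), with rat 217 on top. The change was -0.82 ± 0.20 (limma adjusted p = 0.013) at 90 ppm and -1.14 ± 0.20 (adjusted p = 0.00031) at 200 ppm. At 30 ppm, Ahsp gave -0.52 ± 0.20 (adjusted p = 0.31).

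For the membrane proteins, the probe sets differed. The brightest Slc4a1 probe set, 1369634_at, gave 7.33, 7.17, 7.27, 7.29 and 7.02 at 5 ppm, 6.98, 6.83, 7.02, 6.56 and 6.75 at 90 ppm, and 7.05, 7.16, 6.87, 7.04 and 6.83 at 200 ppm. Most of the 90 ppm rats (4 of 5) and 2 of 5 at 200 ppm were below the whole 5 ppm group. Its change was -0.39 ± 0.10 (limma adjusted p = 0.020) at 90 ppm and -0.23 ± 0.10 (adjusted p = 0.081) at 200 ppm. The second Slc4a1 probe set, 1387656_at, gave 6.79, 6.55, 6.31, 6.61 and 6.43 at 5 ppm and 5.52, 6.33, 5.46, 5.55 and 4.74 at 200 ppm. On it, 4 of 5 rats at 200 ppm were below the 5 ppm group, with a change of -1.02 ± 0.30 (adjusted p = 0.011), and of -0.89 ± 0.30 (adjusted p = 0.035) at 90 ppm. Of the readings given for this probe set, only 6.79 was above the filter threshold of 6.65. It was thus dim in both groups, passed the filter mainly through other arrays, and its change is less certain than that of the brightest probe set. Epb42 was dim on every rat array (5.18 to 6.01) and was not tested. Its readings were 5.88, 5.74, 5.72, 5.72 and 5.52 at 5 ppm, 5.33, 5.41, 5.35, 5.18 and 5.42 at 90 ppm, and 5.21, 5.56, 5.49, 5.37 and 5.56 at 200 ppm. The 90 ppm readings were all below the 5 ppm readings, and 2 readings at 200 ppm overlapped them.

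Bpgm, the red cell bisphosphoglycerate enzyme, was read at 10.89, 10.78, 10.66, 10.76 and 10.49 at 5 ppm and at 10.52, 10.36, 10.30, 10.20 and 11.05 at 30 ppm. It was read at 10.43, 10.25, 10.31, 9.91 and 10.24 at 90 ppm, and at 9.99, 10.42, 10.17, 10.10 and 9.68 at 200 ppm. Every rat at 90 and 200 ppm was below every rat at 5 ppm, and rat 239 was again the highest of the 30 ppm group. The change was -0.49 ± 0.14 (limma adjusted p = 0.025) at 90 ppm and -0.64 ± 0.14 (adjusted p = 0.0019) at 200 ppm, and the second probe set of Bpgm, 1383551_at, gave -0.42 ± 0.16 (adjusted p = 0.055) and -0.56 ± 0.16 (adjusted p = 0.011).

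The order of the 5-day means was 5, 30, 90, 200 ppm for Alas2, Ahsp and Bpgm, but neighbours in that order were not separated by the test. No member was called between 30 and 90 ppm, where 0.282% of genes were called, with 2 of 4 at an unadjusted p under 0.05, or between 90 and 200 ppm, where limma called 0% of genes and no member had an unadjusted p under 0.05. From 30 to 200 ppm, 1 of 4 members was called, Alas2 with -0.99 ± 0.24 (limma adjusted p = 0.041; 0.136% of genes lower). From 5 to 30 ppm limma called no member and 0% of all genes, with 1 of 4 members and 1477 of 11010 genes at an unadjusted p under 0.05.

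The calls at 90 ppm rested on single animals. Without rat 217 of the 5 ppm group, 0 of 4 members were called by limma (adjusted p between 0.083 and 0.12, 36 genes called in all), with Alas2 at -0.89 and Ahsp at -0.64. Without rat 252 of the 90 ppm group, 2 were called, with Slc4a1 and Bpgm lost (adjusted p = 0.051 and 0.059) and Alas2 at -0.76. Without rat 219 of the 5 ppm group, Bpgm was lost (adjusted p = 0.058). All genes called numbered 1057 without rat 252 and 459 without rat 219, against 2598 with all rats. At 200 ppm, 3 or 4 members were called whichever animal was left out, with Alas2 between -1.42 and -1.06 and Ahsp between -1.28 and -0.96.

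RNA quality moved with the 5-day groups. The RNA integrity number, a score of how intact the RNA was, had a median of 8.3 (7.3 to 8.5) at 5 ppm, 9.2 (9.2 to 9.3) at 90 ppm and 7.65 (7.1 to 8.7, from 4 of the 5 rats) at 200 ppm, so that the ranges of 5 and 90 ppm did not overlap and those of 5 and 200 ppm did. With this number as a covariate, in a fit that drops the 2 rats without one, the 200 ppm calls held for 3 of 4 members. Alas2 gave -1.03 (limma adjusted p = 0.0095) and Ahsp -1.08 (adjusted p = 0.0027). At 90 ppm 0 of 4 members passed (adjusted p between 0.099 and 0.13). The changes there were -1.07 ± 0.30 for Alas2, -0.75 ± 0.25 for Ahsp, -0.47 ± 0.13 for Slc4a1 and -0.53 ± 0.17 for Bpgm. Without the covariate the SEs were smaller, at 0.24, 0.20, 0.10 and 0.14. How many of all genes passed in the covariate fit is not given here. Within groups, the relation of the members to the number did not pass in either species (rat Pearson r between -0.09 and 0.19 and Spearman rho between -0.09 and 0.16, n = 38, adjusted permutation p = 0.80 for each r; mouse r between -0.10 and 0.10 and rho between -0.15 and -0.003, n = 40, adjusted permutation p = 0.84 for each r). These values pool both times, and the signs differed between them. In rats r was between 0.15 and 0.41 at 5 days and between -0.51 and 0.22 at 15 days. In mice it was between -0.46 and 0.0048 at 5 days and between 0.23 and 0.47 at 15 days. Within either time alone, no member passed the permutation test in either species, and the difference in sign was not tested. The 3′ minus 5′ difference in log2 signal of the Gapdh and beta-actin control probe sets, which grows as RNA breaks down, had 5-day medians of 0.31, 0.44, 0.29 and 0.24 from 5 to 200 ppm, and within groups no rat member's relation to it passed (r between -0.31 and -0.07, rho between -0.17 and 0.11, n = 40, adjusted permutation p between 0.31 and 0.71).

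**Figure D2:**
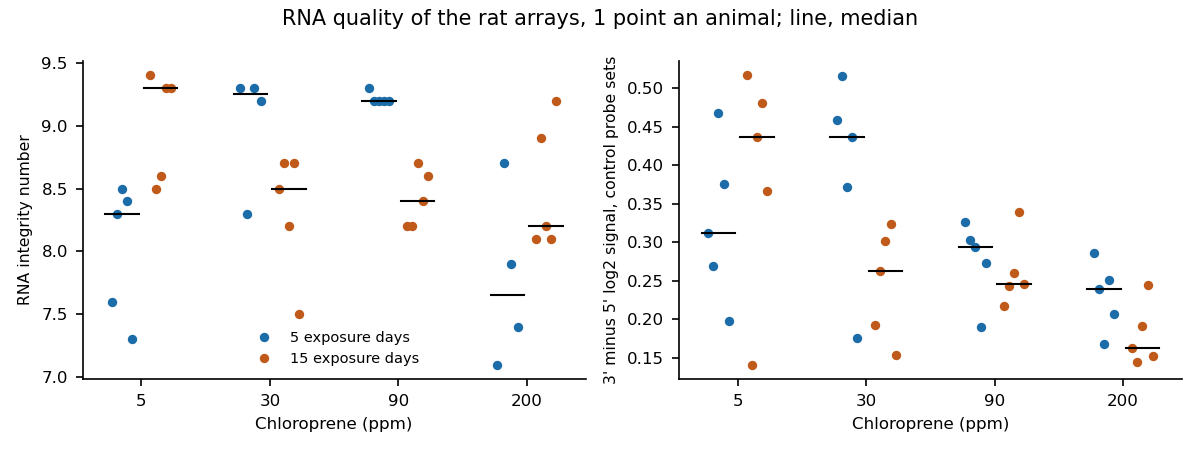
RNA integrity number and the 3′ minus 5′ log2 difference of the control probe sets (vertical axes) of single rat arrays by concentration (horizontal axis, ppm), with 1 point an animal, colour for 5 or 15 exposure days and a line at the median. At 5 days the 90 ppm arrays lie at 9.2 to 9.3, above all 5 ppm arrays (7.3 to 8.5), and the 200 ppm arrays span 7.1 to 8.7.

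After 15 exposure days, the members were no longer lower at the high concentrations. Alas2 was read at 10.11, 10.69, 10.25, 10.66 and 10.21 at 5 ppm, 10.99, 11.01, 10.41, 10.75 and 10.97 at 30 ppm, 10.59, 11.03, 10.89, 11.01 and 10.30 at 90 ppm, and 11.00, 10.06, 10.46, 10.75 and 10.96 at 200 ppm. All groups overlapped the 5 ppm group, and the changes from it were +0.44, +0.38 and +0.26 ± 0.24. Ahsp had group means of 8.44, 8.47, 8.43 and 8.34 from 5 to 200 ppm, Bpgm of 10.61, 10.88, 10.85 and 10.72, and Slc4a1 of 7.20, 7.51, 7.44 and 7.28. The shared globin probe set 1388608_x_at had means of 14.77, 14.90, 14.91 and 14.85. Limma called 0 of 4 members at 30, 90 or 200 ppm against 5 ppm, with 1, 1 and 0 members at an unadjusted p under 0.05 (Slc4a1 at 30 and 90 ppm, +0.31 and +0.24), and it called 1.66%, 0.309% and 0.817% of all genes.

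The change between times differed with concentration. The 200 minus 5 ppm change was higher at 15 than at 5 days by 1.47 ± 0.34 for Alas2 (limma adjusted p = 0.033), by 1.04 ± 0.28 for Ahsp (adjusted p = 0.034) and by 0.75 ± 0.20 for Bpgm (adjusted p = 0.034), so 3 of 4 members were called, or 2 of 3 without Ahsp, where 8.81% of genes were called higher. Slc4a1 gave 0.31 ± 0.15 (adjusted p = 0.10). In both species, animals killed after 15 exposure days were older than those killed after 5. Age and length of exposure can therefore not be told apart between times at 1 concentration. Across the times at 1 concentration, 3 of 4 members rose at 90 ppm (4.82% of genes higher, and 15.8% under quantile normalization), namely Alas2 by 1.05 (adjusted p = 0.036), Slc4a1 by 0.61 (adjusted p = 0.012) and Bpgm by 0.62 (adjusted p = 0.036). At 200 ppm 2 of 4 rose (0.0999% higher, and 1.58% under quantile normalization), namely Alas2 by 1.20 (adjusted p = 0.047) and Bpgm by 0.64 (adjusted p = 0.048), while Ahsp gave +0.69 (adjusted p = 0.052). At 30 ppm Slc4a1 rose by 0.34 (adjusted p = 0.045; 3.35% higher, and 6.57% under quantile normalization), and at 5 ppm no member and 0% of genes were called by limma, with no member and 893 genes at an unadjusted p under 0.05.

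These differences between times sat close to the threshold. The calls of the 200 minus 5 ppm difference were all lost without any 1 of rats 217, 219, 221, 225, 227, 229, 269, 277 or 282 (adjusted p between 0.053 and 0.10, Alas2 between 1.32 and 1.47), and without rat 266 only 1 of the 3 was left. The loss was not particular to the members, because those fits called 0 to 29 genes in all, against 1259 with all rats. The members' calls were also lost with the RNA integrity number as covariate (limma adjusted p = 0.10 for each, Alas2 1.35). They were lost too without the 3 rats whose titles give no tissue (adjusted p = 0.075 for each). For these fits the count of all genes called is not given here. The 2 calls at 200 ppm were lost without rat 265, 269, 277, 280 or 282, with Alas2 between 1.05 and 1.25, where 0 to 5 genes were called in all, against 14. At 90 ppm, none of the 3 calls was left without rat 252 or 257, and only Slc4a1 was left without rat 250, 251, 253, 258 or 259. Without any 1 of these rats, 0 to 2 genes were called in all, against 1209. The single call at 30 ppm changed with every animal left out, to 0 calls without any 1 of rats 233, 234, 236, 237, 241, 242, 244 or 245 and to 2 or 3 calls without rat 243 or rat 239. All genes called there numbered 174 to 891 in the fits with 0 member calls, against 784 with all rats. They numbered 1431 without rat 243 and 3794 without rat 239.

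Other genes of the red cell lineage were taken from lists of haem synthesis, globins, membrane and skeleton, enzymes and late maturation, and regulators. In rats after 5 days, 18 of 38 measured genes of these lists (47.4%, against 31.6% of all genes) were lower at 200 than at 5 ppm and 1 was higher, with a median of -0.22 against -0.14 for all genes. At 90 ppm 10 of 38 (26.3%, against 19.5%) were lower. Both counts moved with single animals: at 200 ppm 6 genes were lower without rat 217 and 11 without rat 219 or rat 269, and at 90 ppm the count was 1 without rat 217, 2 without rat 219 or 251, 4 without rat 221 or 250, 5 without rat 252 or 253 and 18 without rat 222. The count of all genes called, in either direction, moved alike, from 3992 to 1389, 2797 and 2811 at 200 ppm without rats 217, 219 and 269, and from 2598 at 90 ppm to 36 without rat 217, 459 to 1057 without the others named and 5639 without rat 222.

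Haem synthesis had 6 of 10 genes lower at 200 ppm. Fech, the ferrochelatase that inserts iron, fell by 0.58 ± 0.16 (limma adjusted p = 0.0097), Alad, the enzyme after Alas2, fell by 0.47, and Slc25a38, the mitochondrial glycine carrier, fell by 0.40. Abcb10, Ppox and Urod fell by 0.34, 0.35 and 0.27. Alas1, the form of the first enzyme used outside red cells, gave +0.02. Both measured globins outside the members fell, Hba-a3 by 0.46 and Hbb by 0.25. Of 7 membrane genes, 3 fell: Tmod1, which caps actin in the membrane skeleton, by 0.39, Rhd by 0.41 and Dmtn by 0.31. Of 11 genes of enzymes and late maturation, 6 fell, with Ube2o, a ubiquitin enzyme that clears proteins from maturing red cells, at -0.62, Tent5c at -0.58, Blvrb at -0.43, Fbxo7 at -0.34, Prdx2 at -0.33 and Car2 at -0.27. Of 8 regulators, Zfpm1, a partner of Gata1, fell by 0.58, and Kit, the stem cell factor receptor, rose by 0.42. The genes that fell did not all follow Alas2 from animal to animal within groups, a correlation described below. Their r to Alas2 ran from -0.12 (Tmod1) and -0.10 (Car2) to 0.91 (Fech). Kit gave 0.45, and the median over all genes was 0.31.

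After 15 days limma called 0 of these 38 genes at 200 against 5 ppm, beside 0.817% of all genes. At an unadjusted p under 0.05 there were 7 (18.4%), near the share of all genes (17.9%). The difference between times was called higher for 9 of 38 (23.7%, against 8.81% of all genes), and 7 of 38 rose from 5 to 15 days at 90 ppm (18.4%, against 4.82%; under quantile normalization 10 of 38, 26.3% against 15.8%), among them Fech by 0.68 and Ube2o by 0.69.

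**Figure D3:**
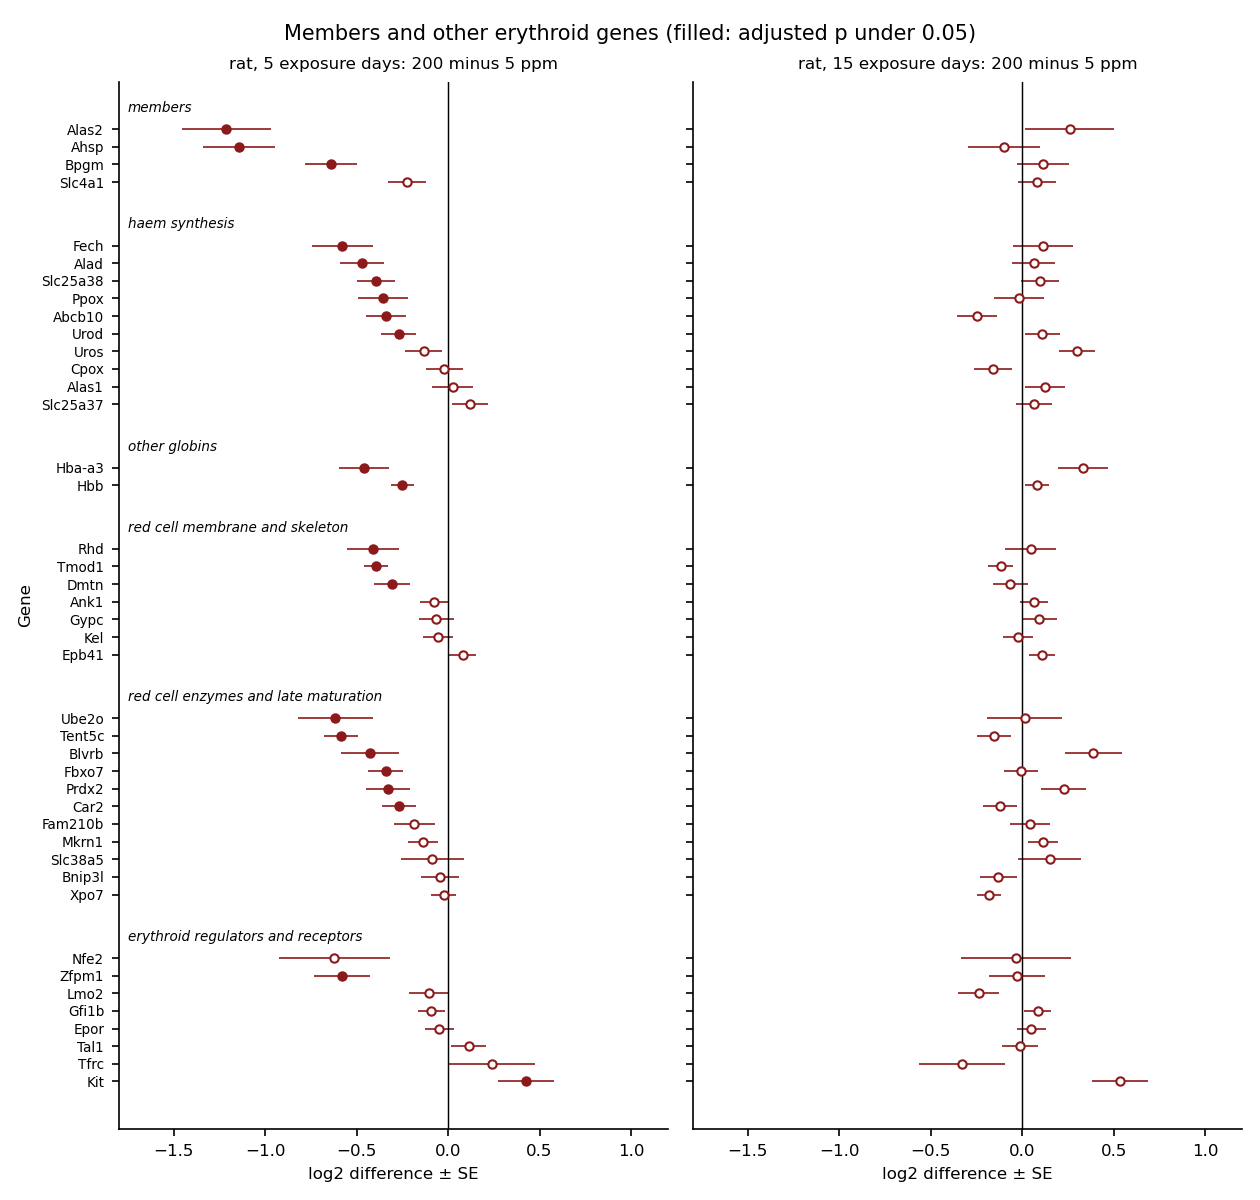
Log2 difference between 200 and 5 ppm (horizontal axis, with SE bars) of the tested members and the other erythroid genes (vertical axis, 1 row a gene) in rats after 5 and after 15 exposure days, with filled points for an adjusted p under 0.05. Most points lie left of 0 at 5 days, as do 68.7% of all genes in that comparison, with Alas2 at -1.21 and Ahsp at -1.14. None is filled at 15 days, where 0.817% of all genes were called.

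Markers of other cells in the same comparison (rat, 5 days, 200 against 5 ppm) were as follows, beside 31.6% of all genes lower and 4.68% higher. Platelet genes, which travel in the same blood, had 3 of 8 lower (37.5%; Pf4 -0.39, Itgb3 -0.46, Clec1b -0.40), and the mean level of that list ran from 8.30 to 8.67 at 5 ppm and from 8.07 to 8.33 at 200 ppm. Limma called 0 of 4 neutrophil genes and 0 of 8 T cell genes, and 1 of 5 B cell genes was lower (Pou2af1 -0.64). Of endothelial genes, 2 of 9 were higher (22.2%; Tek +0.38, Ptprb +0.68), of alveolar type 2 genes 3 of 10 were lower (30%; Abca3 -0.37, Lpcat1 -0.42, Napsa -0.24), and of club cell genes 3 of 5 were higher (60%; Scgb1a1 +0.14, Scgb3a1 +2.20, Aldh1a1 +0.49). The part of these shifts in the members' values was not tested.

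Within groups, the members moved together from animal to animal. Deviations of each animal from its group mean were correlated, so that concentration and time were removed. In mice (45 animals), all 10 pairs among Alas2, Slc4a1, Hba-a1, Epb42 and Bpgm passed (adjusted within-group permutation p of 0.011 or less), with Alas2 to Slc4a1 at r = 0.84 (Spearman 0.85), Alas2 to Bpgm at 0.79 (Spearman 0.79) and Alas2 to Epb42 at 0.46 (Spearman 0.43). In rats (40 animals), the 10 pairs without Ahsp passed, with Alas2 to Bpgm at 0.94 (Spearman 0.93), Alas2 to the shared globin probe set at 0.89 (Spearman 0.81), and Alas2 to Slc4a1 at 0.73 (Spearman 0.67). Without the 2 animals farthest from the median in Alas2, these 3 values were 0.93, 0.84 and 0.67. In both species the pairs with Epb42 rest on a probe set below the filter. Pairs with Hba-a1 rest on a shared probe set near the top of the scale (15.01 to 15.20 in mice). Alas2 to this globin probe set gave 0.69 in mice and 0.89 in rats, and 0.45 and 0.85 under quantile normalization. The smallest p that the permutations can give is 1e-05, reached for Alas2 and Bpgm in both species.

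**Figure D4:**
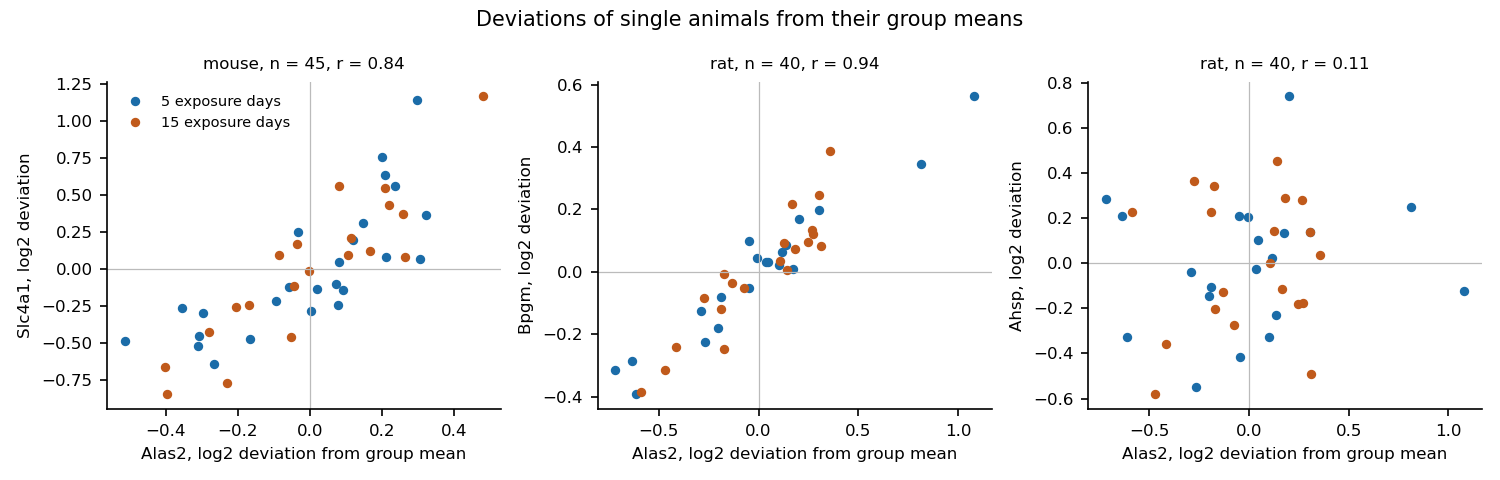
Deviation of single animals from their group mean in Alas2 (horizontal axis, log2) against Slc4a1 in 45 mice and against Bpgm and Ahsp in 40 rats (vertical axes, log2), with 1 point an animal and colour for 5 or 15 exposure days. Slc4a1 follows Alas2 in mice (r = 0.84) and Bpgm in rats (r = 0.94), and Ahsp does not line up with it (r = 0.11).

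Against its label as an erythroid gene, the Ahsp probe set did not move with the other members in rats. None of its 5 pairs passed (r between -0.12 and 0.23), and with Alas2 it gave r = 0.11 (Spearman 0.11, adjusted permutation p = 0.46, n = 40). Ordered by r to Alas2 over 11009 other rat genes, whose median r was 0.31, Bpgm came 1st, Slc4a1 was number 35 and Ahsp number 6894. Over 13795 other mouse genes (median r 0.05), Slc4a1 was number 3 and Bpgm number 6.

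Outside the members, the genes whose deviations followed Alas2 most closely in mice were Slc25a37, the mitochondrial iron carrier (r = 0.93), Fech (0.91), Tent5c (0.82), Fam220a (0.80) and Tspo2 (0.77), then Slc25a39, Marchf2, Ube2o, Trim10 and Epor, the erythropoietin receptor (0.68). In rats they were Rbm38 (0.93), Ybx3 (0.91), Fech (0.91), Cdc25b (0.87), Ube2o (0.81) and Hbb (0.81), then Hagh, Alox15, Npy and Nuak2 (0.77). Of 9600 symbols measured in both species, 7 were within the first 100 in both, namely Bpgm, Fech, Mkrn1, Slc25a39, Slc4a1, Ube2o and the platelet gene Treml1. By list, the median r to Alas2 in rats was 0.77 for the 2 other globins, 0.66 for platelet genes (3 of 8 within the first 100), 0.59 for enzymes and late maturation, 0.55 for T cell, 0.53 for neutrophil, 0.47 for membrane, 0.45 for haem synthesis and 0.41 for regulator genes, against 0.31 for all genes. Other rat lists gave 0.41 (endothelial), 0.31 (B cell), -0.02 (alveolar type 2) and -0.13 (club cell). In mice the median r was 0.54 for the 2 other globins, 0.42 for platelet genes (3 of 12 within the first 100) and 0.41 for membrane genes. It was 0.32 for enzymes and late maturation and for B cell genes, 0.31 for regulator, 0.28 for T cell and 0.21 for haem synthesis genes. Endothelial, alveolar type 2, neutrophil and club cell genes gave 0.14, 0.12, 0.06 and -0.17, against 0.05 for all mouse genes. Of the 10 rat genes named, 9 were lower at 200 ppm after 5 days, beside 31.6% of all genes. They ran from Alox15, a lipoxygenase of maturing reticulocytes, at -0.93 to Hbb at -0.25. At 15 days limma called none of the 10, beside 0.817% of all genes at 200 ppm.

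The 10 genes nearest to the rat Ahsp probe set were looked at after the data were seen. In order they were Sirpa (r = 0.84), Slc51a (0.82), Lrrc17 (0.81), Chst4 (0.81) and Cstb (0.79), then Dbi (0.78), Gata4 (0.78), Wt1 (0.77), Hint3 (0.77) and Igfbp6 (0.77). The median r to Ahsp over all genes was 0.20. None of the first 10 was within the first 100 nearest to Alas2. At 200 ppm after 5 days, 9 of these 10 were lower, beside 31.6% of all genes. The changes of the 10 ran from -1.28 (Chst4) to -0.14 (Hint3, limma adjusted p = 0.20), with a median of -0.63, beside -1.14 for Ahsp. The nearest, Sirpa, gave -0.46, and Wt1, a transcription factor of mesothelial cells, -1.26. The annotation of this probe set was not tested.

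In mice, none of the 3 tested members was called in the 12 comparisons, and Hba-a1 and Epb42 were not tested as genes. Limma called 0 of 3 in each, with 1 of them, Alas2 from 5 to 15 days at 90 ppm, at an unadjusted p under 0.05, while it called 0%, 1.2%, 1.3% and 16.3% of genes at 0.3, 2, 13 and 90 ppm against 0 ppm after 5 days and 0.109%, 0.326% and 7.97% at 2, 13 and 90 ppm against 0.3 ppm after 15 days. From 5 to 15 days it called 0% of genes at 0.3 ppm, 0.0435% at 2 ppm, 2.28% at 13 ppm and 0.123% at 90 ppm, and for the difference between times 0.0435%. Alas2 was read at 12.26, 11.82, 12.32, 12.18 and 12.29 in the 0 ppm mice and at 12.68, 12.21, 12.44, 12.49 and 12.54 at 90 ppm after 5 days. Most of the 90 ppm mice (4 of 5) were above the whole 0 ppm group, and the change was +0.30 ± 0.16 (limma adjusted p = 0.21). After 15 days it was read at 12.35, 12.10, 12.39, 11.79 and 12.29 at 0.3 ppm and at 12.58, 12.06, 11.87, 12.10 and 11.90 at 90 ppm, with overlapping groups. From 5 to 15 days at 90 ppm, Alas2 gave -0.37 ± 0.16 (adjusted p = 0.44).

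Slc4a1 varied most among mice. It ran from 7.97 to 10.03 over the 45 animals, and its SD within groups, 0.51, was above that of 98.6% of genes, beside 0.26 for Alas2 and a median of 0.158 over all genes. At 90 against 0 ppm after 5 days it gave +0.32 ± 0.31, and Bpgm +0.07 ± 0.14. The 3 probe sets shared by Hba-a1 and Hba-a2 lay between 15.0 and 15.3 in every mouse, at the top of the scale, so that no change was read from them. Epb42 was dim (5.87 to 6.46 on its brighter probe set) and was not tested. Among the other erythroid genes in the same comparison, 4 of 46 were higher (8.99% of all genes) and 3 lower (7.35% of all genes), with a median of +0.08. In the same lungs 8 of 8 B cell genes and 4 of 7 T cell genes were lower, with medians of -1.16 and -0.71.

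**Figure D5:**
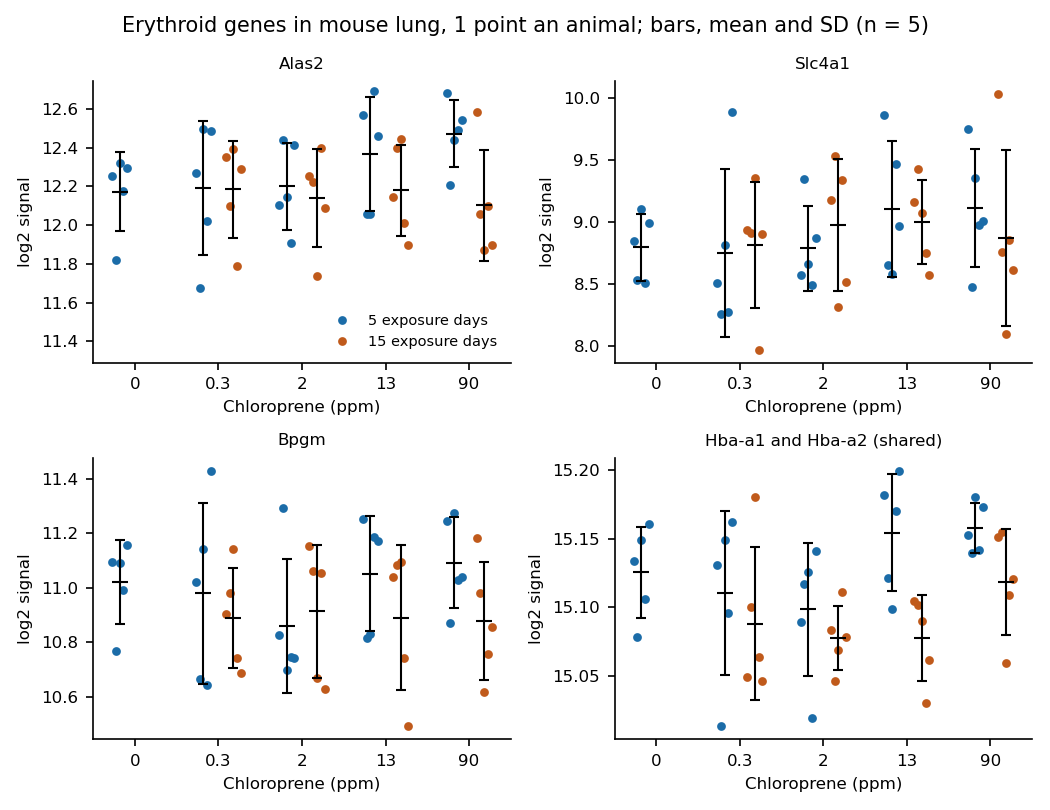
Log2 signal (vertical axis) of Alas2, Slc4a1, Bpgm and a globin probe set shared by Hba-a1 and Hba-a2 in single mouse lungs by chloroprene concentration (horizontal axis, ppm), with 1 point an animal, colour for 5 or 15 exposure days, and bars for the mean and SD of 5 animals. Alas2 means lie between 12.10 and 12.47, and Slc4a1 spreads from 7.97 to 10.03.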

How the data were processed

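The deposited values were log2 signals, 1 column an array, for 45 mouse and 40 rat arrays. Per the labels, RNA was extracted with Trizol and RNeasy and labelled by the standard Affymetrix protocol. How probes were summarised and normalised is not given in the sources used here, and array medians lay between 7.27 and 7.37 in mice and between 7.25 and 7.32 in rats. Groups came from the titles, also for 9 mice titled 15 days whose duration field reads 5. Probe sets above the 40th percentile of all values (6.67 in mice, 6.65 in rats) on at least 5 arrays were kept. The kept probe set of highest mean with 1 symbol stood for a gene. Groups were compared with limma 3.58.1 in R 4.3.3, all groups of a species in 1 fit, Benjamini-Hochberg over all genes. Deviations from group means were correlated with 100000 within-group permutations. The fit was tested on simulated data. Alternatives were no filter and a stricter one, quantile normalization, other choices of probe set, RNA quality as covariate, and leaving out animals. Mouse promoters came from RefSeq (GRCm38.p6). The members and lists were chosen with earlier results of these data known. Named genes were all members, the list genes called where a member was called (at most 6 a list), and the 10 genes nearest to Alas2. The labels do not say whether animals were handled in batches. The number of arrays, 5 a group, limits the precision (median SE of a change 0.0991 in mice and 0.11 in rats).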

Additional observations from a re-analysis of the deposited data

Results flagged for a closer look

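Single animals stood apart from the other 4 of their group in 4 combinations of gene and group, of 45 tested in mice and 48 in rats, and chance gives about 1 in 20. Alas2 was lowest in mouse 102 at 0 ppm after 5 days (11.82, others 12.18 to 12.32), and Bpgm was highest in mouse 134 at 2 ppm after 5 days (11.29, others 10.70 to 10.83). In rats after 5 days, Alas2 was lowest in rat 252 at 90 ppm (9.0, others 9.82 to 10.02), and Epb42 was highest in rat 239 at 30 ppm (6.01, others 5.36 to 5.43). Rat 239 is 1 of 3 rats whose title gives no tissue.

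The change from 5 to 200 ppm differed between 5 and 15 exposure days in rats, by 1.47 for Alas2, 1.04 for Ahsp and 0.75 for Bpgm on the log2 scale, each with a limma adjusted p between 0.033 and 0.034. All 3 calls were lost without any 1 of 9 rats (adjusted p between 0.053 and 0.10), with the RNA integrity number as covariate (0.10 each) and without the 3 rats whose title gives no tissue (0.075 each). Without any 1 of those 9 rats, 0 to 27 genes were called in all, against 1259 with all rats. For the other fits named, that count is not given here.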

How the results depend on the processing

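No called result changed direction under the alternatives tried, and of 463 values of single genes and pairs under an alternative, 359 kept their side of the threshold and 104 no longer passed it. In rats after 5 days, 3 members were called at 200 against 5 ppm and 3 to 4 when 1 animal was left out, and 3 to 4 under the other alternatives, apart from 2 of 3 without Ahsp. Counts of members that moved were as follows. For the covariate fits and the fit without 3 rats, the count of all genes called is not given here. With the RNA integrity number as covariate, 0 were called at 90 against 5 ppm after 5 days, 0 between times at 30 ppm, 1 at 90 ppm, 0 at 200 ppm and 0 in the difference between times, and other erythroid genes lower numbered 0 at 90 and 10 at 200 ppm. With the 3′ to 5′ difference of control probe sets as covariate, added after the data were seen, 0 were called between times at 30 ppm, 0 at 200 ppm and 0 in the difference between times, and other erythroid genes lower at 90 ppm numbered 18. Without the 3 rats with titles without the tissue, also added later, the counts were 1 (30 against 5 ppm at 15 days), 3 (30 ppm between times), 0 (200 ppm between times), 0 (difference between times) and 19 other erythroid genes (90 ppm). Between times, no filter gave 0 at 200 ppm, the 60th percentile filter 0 at 30 ppm, quantile normalization 2 at 30 ppm, and the mean of probe sets 2 at 30 and 0 at 200 ppm. Leaving out 1 animal gave 0 to 4 members at 90 against 5 ppm, 0 to 3 between times at 30 ppm, 0 to 4 at 90 ppm, 0 to 4 at 200 ppm, 0 to 3 for the difference, and 1 to 18 and 6 to 20 other erythroid genes lower at 90 and 200 ppm. Leaving out Ahsp, added later, changed no count in rats by more than 1.5 times. In mice 0 were called throughout. Of the pairs of members that moved together, 7 to 10 passed in mice and 8 to 10 in rats. Quantile normalization moved the share of lower calls from 56.1% to 34.2% between times at 90 ppm, from 52.9% to 40.9% at 30 ppm, from 31.1% to 13.1% at 30 against 5 ppm and from 38.9% to 27.9% at 200 against 5 ppm after 15 days. The cause of these shifts was not tested. No paired analysis was possible because each animal has a number of its own and was killed once.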
